A study of Mus musculus with 6 samples.

Results

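Retained-intron transcripts are annotated products of protein-coding genes that keep an intron which the coding transcripts of the same gene splice out. The transcripts described here carry the retained_intron class of GENCODE M21, average at least 20 estimated reads over the 6 libraries, and belong to genes whose protein-coding transcripts also average at least 20 estimated reads. The files list 21447 retained-intron transcripts. Of these, 2405 averaged 20 or more estimated reads, and 2355 (11.0%) met both conditions, in 1840 of the 9102 genes that have both kinds of transcript. The estimated reads of all 6 libraries chose them. Just inside the threshold were Hypk-205 at a mean of 20.001 estimated reads, Hbq1b-202 at 20.008 and Mpc2-205 at 20.015, and just outside it were Ccar1-203 at 19.97, Il15ra-208 at 19.954 and Fyttd1-214 at 19.939.

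A retained intron is a form of alternative splicing in which the spliceosome leaves an intron in an otherwise finished RNA. Such RNAs are often held in the nucleus or, once exported, degraded by nonsense-mediated decay because the intron brings a premature stop codon, so retention can lower the amount of protein a gene makes. Several splicing regulators, among them SR proteins and the CLK kinases that phosphorylate them, are known to limit their own output in this way. In the heart, splicing changes widely during development, and sarcomere genes are among the best-known substrates.

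The libraries were made from hearts of fetal FVB/NJ wild-type mice collected on gestational day 15, with male and female fetuses pooled in each library. The dams, 14 in the whole study and 10 weeks old, spent the exposures in whole-body chambers with filtered room air (sham, 3 libraries) or with aerosolized nano-sized titanium dioxide (nano-TiO2, 3 libraries). Exposure began on gestational day 5. It had a target of 12 mg/m3 and lasted 360 minutes on each of 6 days that were not consecutive, spread over 8 days. The RNA is the input of an m6A immunoprecipitation: it was fragmented but not selected with the antibody. Both groups share strain, genotype, age and collection day. How many litters contributed to each pool is not stated, so every p-value measures the spread between these pools.

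Estimated reads per library that matched the annotation ranged from 12795872 to 22565476. All 6 cardiomyocyte markers were detected, with a summed level of 28454 to 34135 CPM in the sham libraries and 32074 to 35818 CPM in the nano-TiO2 pools. Markers of other tissues varied more. The 6 erythroid markers summed to 60499, 122373 and 43127 CPM in sham 1, 2 and 3 and to 42407, 27058 and 41258 CPM (nano-TiO2 1 to 3), the 4 hepatocyte markers to between 15.8 and 534 CPM against 2.78 to 27.2 CPM, and the 3 lung epithelium markers to between 11.1 and 129 CPM against 0.331 to 1642 CPM. The erythroid sum was lower in every nano-TiO2 library than in every sham library, narrowly so at 42407 against 43127 CPM for the closest 2. Sham 2 held the highest erythroid and hepatocyte sums and nano-TiO2 3 the highest lung sum. Counts below are also given without both libraries. In pooled tissue, a lower level from fewer cells of a type and one from less RNA per cell cannot be told apart.

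The following introns show what a retained intron looks like in these genes. Those of Cdip1, Anapc5 and Bub3 belong to genes described below for having the smallest p among ratio rises. The intron of Srsf5 was chosen after its values were seen, because it holds many intron reads in a splicing gene. Each line runs 5′ to 3′ on the gene's strand and joins 20 bases of exon to 40 bases of intron. Capitals mark the first 6 bases of the intron at its start and the last 3 bases at its end, the parts the spliceosome recognises. Sequences and positions come from the GENCODE M21 transcripts (GRCm38). Cdip1 intron 4 of 5 lies at chr16:4769019-4769639 on the minus strand, Anapc5 intron 9 of 16 at chr5:122800594-122802129 on the minus strand, Bub3 intron 3 of 7 at chr7:131561607-131563333 on the plus strand, and Srsf5 intron 5 of 7 at chr12:80947866-80949094 on the plus strand.
Cdip1 intron 4, start: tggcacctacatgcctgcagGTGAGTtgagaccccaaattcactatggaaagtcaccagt
Cdip1 intron 4, end: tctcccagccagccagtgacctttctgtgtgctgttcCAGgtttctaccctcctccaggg
Anapc5 intron 9, start: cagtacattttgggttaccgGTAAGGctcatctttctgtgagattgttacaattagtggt
Anapc5 intron 9, end: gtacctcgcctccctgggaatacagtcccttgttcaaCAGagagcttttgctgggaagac
Bub3 intron 3, start: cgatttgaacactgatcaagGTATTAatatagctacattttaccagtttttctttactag
Bub3 intron 3, end: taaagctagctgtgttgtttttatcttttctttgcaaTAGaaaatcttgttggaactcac
Srsf5 intron 5, start: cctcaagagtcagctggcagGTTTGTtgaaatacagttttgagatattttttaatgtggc
Srsf5 intron 5, end: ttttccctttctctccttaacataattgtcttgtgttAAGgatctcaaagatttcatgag

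All 4 begin with GT and end with AG, the usual boundaries of an intron. Cdip1 intron 4 begins with GTGAGT, letters that pair well with the U1 small nuclear RNA, whereas Srsf5 intron 5 begins with GTTTGT. Srsf5 intron 5 held 79, 44 and 75 reads (sham 1 to 3) compared with 213, 160 and 192 reads (nano-TiO2 1 to 3). The read counts of both groups do not overlap, although library depth differed and is taken into account only in the ratios below. Cdip1 intron 4 held few reads by itself, 7, 0 and 4 in the sham pools next to 12, 6 and 16 in the nano-TiO2 pools. Anapc5 intron 9 held 10, 1 and 5 next to 20, 25 and 12. Bub3 intron 3 held 0, 1 and 1 in the sham pools next to 5, 6 and 13 in the nano-TiO2 pools.

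Most genes had a single member: 1449 genes had 1, 302 had 2 and 89 had 3 or more, with 6 in Mkln1, which encodes muskelin, a subunit of a large E3 ubiquitin ligase. The median length of a member was 1961 bases, and 1678 of 2355 members were shorter than the coding transcripts of their gene, whose read-weighted length had a median of 2982 bases. Their GC content was much like that of the coding transcripts, with medians of 49.6% and 50.8%. Reads were concentrated in few genes: the median member averaged 42.2 estimated reads, 549 averaged 100 or more, 46 averaged 1000 or more, and 10 genes held 20.8% of all member reads. In 122 genes the members together held more estimated reads than the coding transcripts.

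A minority of members spans a whole intron of a coding transcript. By comparing exon structures, 918 of 2355 members were found to contain at least 1 complete coding intron, 572 with exactly 1 and 346 with 2 or more. The others hold part of an intron or differ from the coding transcripts in another way. The 1498 introns concerned, in 789 genes, were short, with a median of 321 bases against 1165 bases for all 30964 coding introns of the same genes. Most, 88.3%, lay within the coding sequence, and 98.3% had GT and AG boundaries. GTGAGT opened 13.6% of them and GTAAGT 10.5%, next to 14.6% and 9.30% of the 8632 introns held by any annotated retained-intron transcript. The introns of the members were thus shaped much like annotated retained introns at large, whose median length was 278 bases.

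In every nano-TiO2 library the members took a larger part of their genes' reads than in any sham library. Retained-intron reads made up 4.84%, 4.09% and 4.65% of the retained-intron plus coding reads (sham 1 to 3) compared with 6.06%, 6.78% and 6.31% (nano-TiO2 1 to 3). Of all matched reads they made up 1.56%, 1.54% and 1.50% against 1.94%, 1.97% and 1.98%. The median gene had a retained-intron share of 7.76%, 8.15% and 6.90% in the sham pools next to 9.66%, 9.72% and 9.35% in the nano-TiO2 pools. Groups did not overlap in any of these 3 measures. Part of this follows from the choice of members, which rests on the mean of all 6 libraries: members summed per gene averaged 20 or more reads in both groups in 1425 genes, in nano-TiO2 alone in 371 and in sham alone in 44. In the 1425 genes the share of reads was 5.16%, 4.27% and 4.99% in the sham pools next to 6.42%, 7.24% and 6.75% in the nano-TiO2 pools. The median gene there had 9.70%, 10.6% and 9.0% against 11.5%, 11.1% and 11.1%. The groups remained apart in both measures. Other non-coding transcript classes of coding genes showed no such gap. Transcripts annotated as targets of nonsense-mediated decay took 16.0% to 19.5% of the reads in the sham libraries and 17.3% to 18.4% in the nano-TiO2 pools, and processed transcripts, which have no open reading frame, took 10.3% to 11.6% in both groups.

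Gene by gene, the log2 change of the ratio of retained-intron to coding reads had a median of 0.27 over 1840 genes and was above 0 in 66.3% of them. For 1011 genes with nonsense-mediated-decay transcripts chosen by the same read minimum, the median was -0.02 with 48.1% above 0, and for 930 genes with processed transcripts it was -0.01 with 48.9% above 0. The read minimum raises the first of these medians. Over the 1425 genes that reached it in both groups the median was 0.17 with 62.9% above 0. Genes that reached it in both groups numbered 867 for nonsense-mediated decay, with a median of -0.04, and 787 for processed transcripts, with a median of -0.01. No single ratio passed the test. edgeR's quasi-likelihood test with Benjamini-Hochberg adjustment over all 3781 ratios of the 3 classes called 0 genes higher and 0 lower (0% of the ratios tested), with a lowest adjusted p of 0.0543. At an unadjusted p under 0.05 it found 339 retained-intron ratios higher and 36 lower, where the background over all 3781 was 10.7% higher and 2.49% lower. DESeq2 on the same reads called 149 higher and 11 lower (background 5.08% and 1.19%), against 25 and 18 for nonsense-mediated decay and 18 and 16 for processed transcripts. Groups did not overlap in 439 genes with nano-TiO2 above and 95 with nano-TiO2 below (background 15.2% and 6.32%). The spread between libraries of the same group was wide, at a biological coefficient of variation of 50.3%, and in simulated data of this depth the test recovered 1.77% of ratios changed by 2 on the log2 scale, so that its count of 0 holds little information about single genes.

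**Figure D1:**
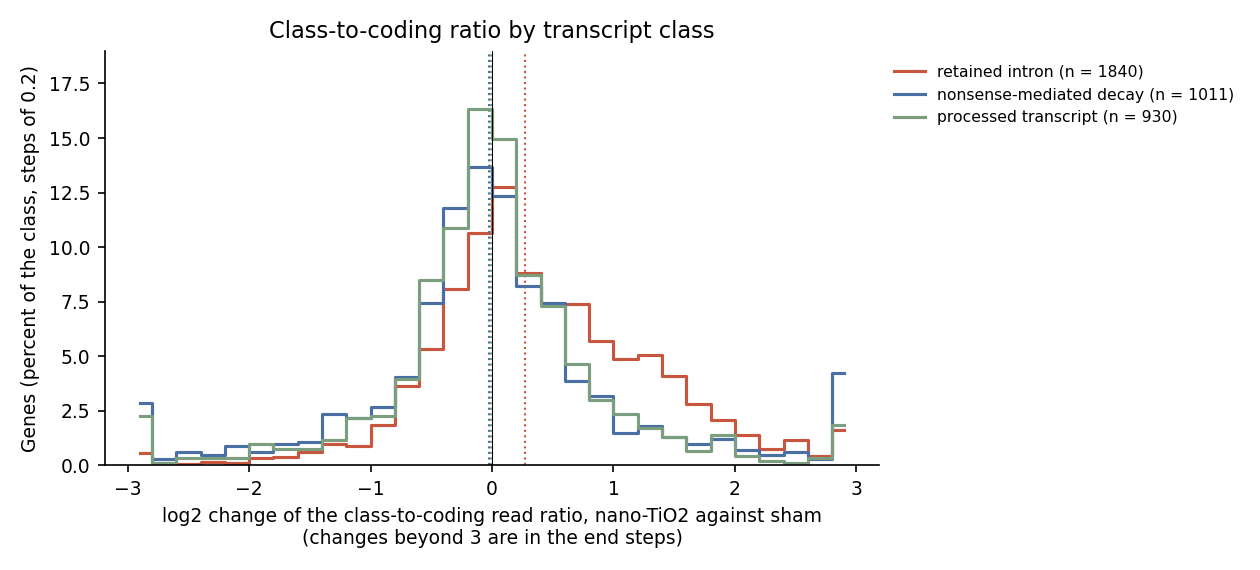
Distribution of the log2 change in the ratio of class reads to coding reads (horizontal axis, nano-TiO2 against sham) as the percentage of genes of each class (vertical axis), with dotted lines at the class medians. The retained-intron curve is shifted to the right with a median of 0.27, while the curves of nonsense-mediated decay (-0.02) and processed transcripts (-0.01) centre close to 0.

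Salmon assigns a read to a transcript by a model, and retained-intron transcripts share exon sequence with the coding transcripts of their gene. A second source in the deposited data counts reads in bins of 25 bases along each gene, so reads in stretches covered only by retained-intron transcripts (intron parts) could be set against reads in coding exons directly. Of the 1840 genes, 554 averaged 20 or more reads in both. There, intron parts held 34271, 21767 and 36341 reads in the sham pools next to 44400, 39282 and 51842 in the nano-TiO2 pools. Per 1000 coding-exon reads this was 10.1, 6.38 and 12.2 against 21.1, 25.3 and 18.0. The median gene's intron density, defined as intron reads per base in percent of coding-exon reads per base, was 7.19%, 6.75% and 6.01% (sham 1 to 3) compared with 10.5%, 13.2% and 9.73% (nano-TiO2 1 to 3). Again the 3 nano-TiO2 libraries were all above the 3 sham libraries.

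With these reads edgeR's quasi-likelihood test called the intron-to-coding ratio higher in 195 of 554 genes and lower in 9, where the background over all 660 genes tested was 32.7% higher and 1.67% lower. The median log2 change was 0.64, and 77.8% of the genes were above 0. At an unadjusted p under 0.05, 242 genes were higher and 14 lower (background 40.6% and 2.73%). The 106 tested genes without a member, whose retained-intron transcripts did not reach the minimum of estimated reads, gave 21 higher, 2 lower and a median of 0.16. Whether that differs from the 554 was not tested. Groups did not overlap in 243 genes with nano-TiO2 above and 22 with nano-TiO2 below (background 41.2% and 4.24%), and DESeq2 called 167 higher and 6 lower (background 27.9% and 1.06%). The read minimum itself favours genes that are high in a group: 203 of the 554 genes averaged 20 intron reads in nano-TiO2 alone and 6 in sham alone, and 96 of the 195 higher genes were among the former. Of the 345 genes that averaged at least 20 in each group, 99 were called higher and 8 lower, with a median of 0.47.

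Without sham 2 and nano-TiO2 3 the counts were 150 higher and 3 lower, and 145 of the 195 were still called. Leaving out single libraries gave 136 to 211 higher, and 3 lower without sham 2 or without nano-TiO2 1 and 4 without sham 3. Reads in the table lay upstream of the exons: they fell on coding exons best after being moved 125 bases towards the 3′ end. Without that move 59 genes were higher and 1 lower of 1089 genes tested. Among the genes described below with values per library, the calls of Cdip1, Rcsd1, Spsb4, Sat1 and Snrnp70 were kept without the move, and those of Anapc5, Bub3, Mef2c, Gga2, Myh7, Ndufab1, Tnnt2, Gpi1, Rps24 and Srsf5 were lost. Intron bases covered by an annotated exon of another gene, on either strand, were left out, which affected 140 genes with a member. The strand setting of the table is not given in the sources used here, so antisense reads that remain cannot be told from intron reads.

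**Figure D2:**
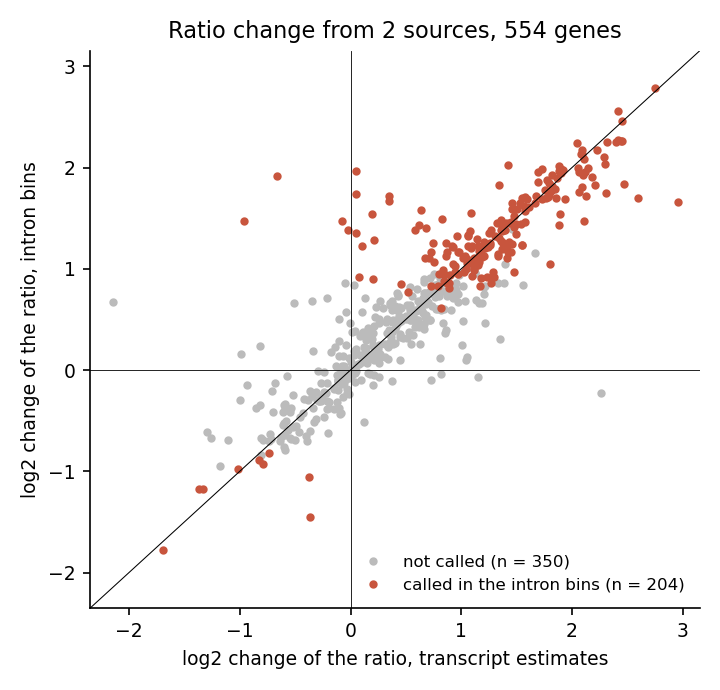
Log2 change of the ratio from the transcript estimates (horizontal axis) against that from the intron bins (vertical axis) for 554 genes, nano-TiO2 against sham, with the line of equality. Red points are the 204 genes called in the intron bins, 195 higher and 9 lower. Most points follow the line, and a group of called genes lies near 0 horizontally and above 1 vertically.

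Transcript estimates and bins rest on the same 6 libraries and so are not independent, but they treat the reads differently. Their log2 changes had the same sign in 512 of 554 genes (92.4%) with Pearson's r of 0.86 across genes. Of the 204 genes called in the bins, 200 had the same sign in the transcript estimates, with a median absolute difference of 0.14. Of the 149 genes that DESeq2 called higher from transcript estimates, 93 could be tested in the bins and 90 of them were called higher there.

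The genes with the smallest p among ratio rises by transcript estimates also rose by intron reads. Because no ratio was called in the transcript estimates, genes with the smallest p in each direction are given. They had to average at least 50 retained-intron reads and have shares that do not overlap between groups. Separation of the shares is thus a condition of the choice and not a result. Cdip1, which encodes a mediator of p53-dependent and TNF-dependent cell death, had a retained-intron share of 1.82%, 1.54% and 1.72% in sham 1, 2 and 3 and of 9.24%, 7.06% and 7.48% (nano-TiO2 1 to 3). Every nano-TiO2 library was above every sham library, as the choice required. Its log2 change was 2.32 ± 0.20 (SE) with an edgeR adjusted p of 0.0543, and its intron reads gave 2.26 ± 0.29 with an edgeR adjusted p of 2.5e-06. Anapc5, a scaffold subunit of the anaphase-promoting complex, had an intron density of 0.288%, 0.290% and 0.167% in the sham pools next to 1.88%, 1.41% and 1.15% in the nano-TiO2 pools. That was a rise of 2.55 ± 0.36 (edgeR adjusted p = 6.1e-06). Bub3, a spindle checkpoint protein, went from 0.933%, 1.09% and 0.457% to 4.25%, 3.16% and 4.39%, a rise of 2.26 ± 0.36 (edgeR adjusted p = 2.27e-05). In all 3 genes the fold was similar in both sources, since the transcript estimates of Anapc5 and Bub3 gave 2.41 and 2.46.

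Rcsd1 encodes CapZIP, a protein that binds actin-capping protein and is abundant in muscle. Its intron density was 2.74%, 4.34% and 3.26% in the sham pools next to 15.5%, 15.2% and 14.0% in the nano-TiO2 pools, a rise of 2.13 ± 0.35 (edgeR adjusted p = 2.38e-05). Spsb4, a substrate adaptor of an E3 ubiquitin ligase, had 1.37%, 2.38% and 1.59% against 8.85%, 7.39% and 7.34%, a rise of 2.17 ± 0.38 (edgeR adjusted p = 4.86e-05). Sat1, the rate-limiting enzyme of polyamine breakdown, had 4.55%, 3.97% and 2.63% against 16.4%, 14.7% and 12.1%, a rise of 1.97 ± 0.34 (edgeR adjusted p = 4.66e-05). Groups did not overlap in the intron density of these genes, which were chosen for shares without overlap. Of the 6, Anapc5 and Bub3 had log2 changes of 0.05 and 0.13 with reads left at their deposited positions.

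**Figure D3:**
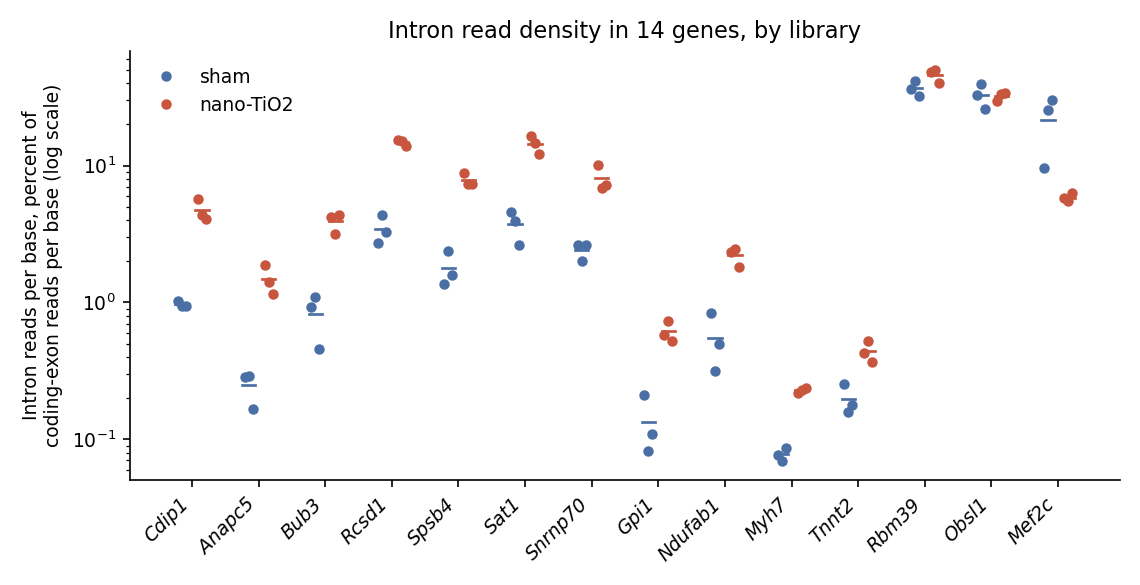
Intron reads per base in percent of coding-exon reads per base (vertical axis, log scale) for 14 genes, with a point per library (blue sham, red nano-TiO2) and a bar at each group's mean. Red points lie above blue points in the first 11 genes, they overlap in Rbm39 and Obsl1, and they lie below them in Mef2c.

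Decreases were fewer and less alike. Mef2c, a transcription factor needed for early heart formation, had an intron density of 9.54%, 25.5% and 30.0% (sham 1 to 3) compared with 5.76%, 5.47% and 6.30% (nano-TiO2 1 to 3). Its intron-to-coding ratio fell by 1.78 on the log2 scale (SE 0.38, edgeR adjusted p = 0.000486), close to the -1.69 ± 0.46 of the transcript estimates (edgeR adjusted p = 0.197), while its coding reads rose by 1.23. Mef2a, of the same factor family, fell too, from 7.75%, 9.94% and 8.90% to 4.35%, 7.42% and 3.94% (log2 change -0.82 ± 0.31, edgeR adjusted p = 0.04). The call of Mef2a was lost without sham 2 and nano-TiO2 3 (-0.56, edgeR adjusted p = 0.296) and with length and GC trends removed (-0.74, edgeR adjusted p = 0.0523). Ankrd17, Phip, Ppp4r3a, St7l, Luc7l2, Ube3a and Tmcc1 make up the rest of the 9 genes called lower, with log2 changes from -1.45 in Tmcc1 to -0.89 in Luc7l2. Mef2c, St7l and Tmcc1 were the 3 of the 9 still called without sham 2 and nano-TiO2 3. The intron part of Tmcc1 held more reads per base than its coding exons in every library, at 838% to 2635%. Apart from Mef2c, these genes were named after their values were seen.

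The other genes with the smallest p among decreases by transcript estimates had few intron reads or an opposite change in them. Sod2, the mitochondrial superoxide dismutase, had a retained-intron share of 49.7%, 52.0% and 48.0% in the sham pools next to 30.8%, 30.2% and 33.4% in the nano-TiO2 pools. Its log2 change was -1.12 ± 0.17 with an edgeR adjusted p of 0.0809. No read fell in its intron part in any library. Zfp316, a zinc-finger gene, had 154, 118 and 31.5 estimated retained-intron reads in the sham libraries and was listed at 0 in all 3 nano-TiO2 libraries, yet its intron part held at most 1 read per library. Ghitm, a protein of the inner mitochondrial membrane, had fewer than 5 intron reads in every library. Gga2, a sorting adaptor of the Golgi, changed by -0.96 by transcript estimates (edgeR adjusted p = 0.182) and rose by 1.47 ± 0.39 by intron reads (edgeR adjusted p = 0.00335). Its intron call was lost without sham 2 and nano-TiO2 3 (log2 change 1.01).

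Those genes with the most retained-intron reads were a separate case. Myh7, the slow myosin heavy chain, led with 17966, 19382 and 16342 estimated reads in the sham pools next to 14033, 10833 and 30623 in the nano-TiO2 pools. The shares overlapped, at 7.76%, 14.3% and 6.48% against 8.77%, 7.72% and 15.2%, and the log2 change of 0.19 ± 0.46 did not pass (edgeR adjusted p = 0.94). In the intron parts of Myh7, by contrast, density was 0.0770%, 0.0698% and 0.0866% in the sham pools next to 0.217%, 0.228% and 0.238% in the nano-TiO2 pools, a rise of 1.54 ± 0.22 (edgeR adjusted p = 6.1e-06) that became -0.05 when reads were not moved. Ndufab1, the mitochondrial acyl carrier protein, behaved likewise. Its retained-intron share was 55.1% to 57.8% in the sham libraries and 56.3% to 58.5% in the nano-TiO2 pools, whereas its intron density was 0.832%, 0.317% and 0.497% against 2.35%, 2.47% and 1.81%, a rise of 1.96 ± 0.36 (edgeR adjusted p = 8.86e-05).

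Fn1, the matrix protein fibronectin, and Idh3a, a subunit of the citric acid cycle's isocitrate dehydrogenase, also ranked among the 10 genes with most reads. Their log2 changes were 0.35 and -0.08 by transcript estimates and 1.67 and 1.47 by intron reads (edgeR adjusted p of 0.000527 and 0.00808), the last lost without sham 3 or without nano-TiO2 2 (log2 changes 1.12 and 0.91). Slc25a4, Gapdh, Prelid1, Mrps24 and Dynll1, also among the 10, had too few intron reads for the test. Gapdh, the glycolytic enzyme, held a mean of 10500 estimated retained-intron reads and between 9 and 23 reads per library in its intron part.

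Levels from estimates and from intron reads were far apart in genes with many member reads. Over 1318 genes with at least 100 bases of intron part, retained-intron transcripts held a median of 11.4% of the length-scaled estimated reads, while intron density had a median of 5.33%. Density was less than 25% of the share in 324 genes (24.6%). Across 5 groups of genes of equal size, from the fewest member reads to the most, that proportion was 9.09%, 11.8%, 14.0%, 23.6% and 64.4%. In Myh7 the share was 51.8% and the density 0.153%, in Slc25a4 23.4% and 0.0756%, in Gapdh 52.9% and 0.152%, and in Idh3a 49.4% and 0.346%. In these genes the intron parts held far fewer reads per base than the estimates assign to the members.

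Functions were described with 14 gene lists, by the intron reads of their members, against 195 higher and 9 lower of 554 and a median log2 change of 0.64 for all genes tested. For each list the rule named the 4 genes with the most retained-intron reads, and other members called in the test were named after their values were seen. Sarcomere and cytoskeleton genes, the contractile apparatus, had 8 of 13 higher and 0 lower with a median of 1.06. Tnnt2, cardiac troponin T, rose from an intron density of 0.254%, 0.157% and 0.179% to 0.428%, 0.523% and 0.368% (log2 change 1.17 ± 0.22, edgeR adjusted p = 0.000105), and became -0.18 with length and GC trends removed, as described below. Tnnc1, which encodes the calcium-binding troponin C of slow and cardiac muscle, rose by 1.69, Myl4, the atrial essential light chain, by 1.90, Tnni3, cardiac troponin I, by 1.43, and Myh7 by 1.54. Obsl1, a cytoskeletal adaptor, was high and level in both groups, at 32.7%, 39.7% and 25.9% against 29.6%, 33.6% and 33.8%. Without sham 2 and nano-TiO2 3, 6 of the 13 were called higher.

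Glycolysis and intermediary metabolism had 8 of 10 genes higher and 0 lower with a median of 1.39. Gpi1, the glycolytic glucose-6-phosphate isomerase, had an intron density of 0.212%, 0.0823% and 0.110% in the sham pools next to 0.581%, 0.738% and 0.522% in the nano-TiO2 pools, a rise of 2.17 ± 0.32 (edgeR adjusted p = 7.34e-06). Groups did not overlap, and Gpi1 remained called with the length and GC trends removed (1.33). Pfkp, a phosphofructokinase, rose by 2.03, Cs, citrate synthase, by 1.96, Pkm, pyruvate kinase, by 1.45, and Idh3a by 1.47. Eno1, an enolase, rose by 0.62 but lost its call under most alternatives tried and turned to -0.24 with trends removed. Without sham 2 and nano-TiO2 3, 6 of the 10 genes were called higher.

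Mitochondrial respiration had 5 of 9 genes higher and 0 lower with a median of 0.83: Ndufab1, Atp5l (1.65), Atp5j2 (1.11), Cyc1 (0.92) and Atp5b (0.83), which encode subunits of complex I, of the ATP synthase and of complex III. With length and GC trends removed, Atp5j2 turned to -0.23 and Atp5b to -0.17, and Cyc1 was at 0.05. Cytosolic ribosome and translation genes had 5 of 7 higher and 0 lower with a median of 0.95. Rps24, a protein of the small ribosomal subunit, had an intron density of 0.617%, 0.658% and 0.284% against 3.13%, 2.83% and 2.46%, a rise of 2.46 ± 0.37 (edgeR adjusted p = 1.02e-05). All nano-TiO2 libraries exceeded all sham libraries. Rpl10a, Rpl6, Rpl41 and the helicase gene Eif4a2 rose by 1.25, 1.17, 0.92 and 0.95, where Rpl41 turned to -0.05 with trends removed. Without sham 2 and nano-TiO2 3, 3 of 9 and 4 of 7 genes of these lists were called higher.

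**Figure D4:**
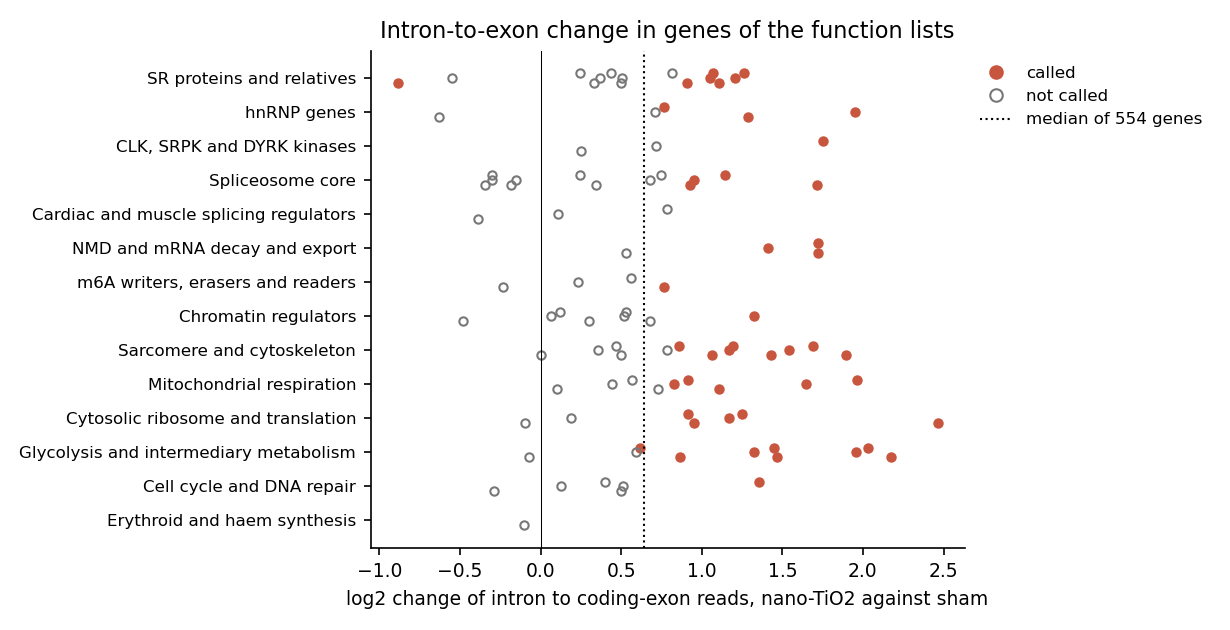
Log2 change of the ratio of intron to coding-exon reads (horizontal axis, nano-TiO2 against sham) for the tested genes of each function list (vertical axis), with filled points called by edgeR and open points not called, and a dotted line at 0.64, the median of all 554 genes. Metabolic and sarcomere genes lie mostly to the right of that line, and spliceosome, chromatin and cell cycle genes mostly to its left.

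By intron reads, SR genes and the spliceosome core had smaller median changes than metabolic and sarcomere genes, a difference between lists that was not tested. Splicing factors are the textbook case of regulated intron retention. With length and GC trends removed, the order against sarcomere genes was not kept. Medians were then 0.03 for sarcomere, 0.13 for SR, -0.03 for spliceosome core, 0.67 for hnRNP and 0.51 for metabolic genes. By transcript estimates the medians were closer for SR genes: 0.92 over 21 genes, against 1.02 over 28 sarcomere and 1.10 over 12 metabolic genes. The spliceosome core was at 0.18 over 24 genes, and all 1840 genes were at 0.27. By intron reads, SR proteins and their relatives had 6 of 15 higher and 1 lower with a median of 0.51. The 6 were Srsf2 (1.26), Srrm1 (1.20), Srsf7 (1.11), Tra2a (1.07), Srsf3 (1.05) and Srsf5 (0.91), and the 1 lower was Luc7l2 (-0.89). Srsf5 had an intron density of 9.08%, 7.77% and 10.7% in the sham pools next to 19.7%, 18.9% and 13.6% in the nano-TiO2 pools, with an edgeR adjusted p of 0.0284. Its call was lost without sham 2, without nano-TiO2 1 or without nano-TiO2 2 (log2 changes of 0.80, 0.81 and 0.84). Rbm39, a relative of the SR proteins with the most retained-intron reads of the list, had a high density in both groups, 36.1%, 41.5% and 32.3% against 48.4%, 49.8% and 40.1%, and its log2 change of 0.33 did not pass (edgeR adjusted p = 0.375). Without sham 2 and nano-TiO2 3, 4 of 15 were higher and 0 lower.

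Among hnRNP genes, RNA-binding proteins that often repress splice sites, 3 of 5 were higher and 0 lower with a median of 0.77. Hnrnpl rose by 1.29, a call lost without sham 2 (0.94) or without nano-TiO2 1 (1.12), and Hnrnpa2b1 by 0.77, a call lost when sham 1 (0.56), sham 2 (0.81), nano-TiO2 1 (0.66) or nano-TiO2 2 (0.56) was left out. Of the CLK, SRPK and DYRK kinases 1 of 3 was higher, Clk3 (1.75), while Clk1 had an intron density of 14.3%, 14.1% and 16.5% against 24.1%, 27.2% and 22.8% with a log2 change of 0.72 (edgeR adjusted p = 0.0913).

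The spliceosome core had 4 of 13 higher and 0 lower with a median of 0.35. Snrnp70, the 70-kilodalton protein of the U1 particle, had an intron density of 2.65%, 2.01% and 2.64% against 10.2%, 6.85% and 7.19%, a rise of 1.71 ± 0.29 (edgeR adjusted p = 3.6e-05). No sham library reached the lowest nano-TiO2 library. Sf3b3, Ddx39b and Snrnp48 rose by 1.14, 0.92 and 0.95, where Ddx39b turned to -0.03 with trends removed, and without sham 2 and nano-TiO2 3 a single gene of the 13 was called. Nonsense-mediated decay, mRNA decay and export had 3 of 4 genes higher: Exosc7 (1.72), of the RNA exosome, Dcp1b (1.72), a decapping cofactor, and Smg5 (1.41), which recruits decay enzymes to RNAs with a premature stop. Smg5 was no longer called without sham 2 and nano-TiO2 3 (1.23, edgeR adjusted p = 0.0543), which left 2 of the 4. With trends removed edgeR called 0 of the 4, at log2 changes of 0.37, 0.55 and 0.58 for the 3 genes. The m6A list had 1 of 4 higher, Hnrnpa2b1 again, the chromatin regulators 1 of 8 (Trrap, 1.33), the cell cycle and DNA repair list 1 of 6 (Cdk4, 1.36), the cardiac splicing regulators 0 of 3 and the erythroid list 0 of 1, with no gene lower. For the last 2 lists, 0 of 3 and 0 of 1 were also called by DESeq2 and by edgeR at an unadjusted p under 0.05. The absence of lower genes depends on the scaling. With each library's median ratio removed, Pcif1 of the m6A list, Setd5 of the chromatin list, Ccnd2 of the cell cycle list, Mbnl1 of the cardiac splicing list and the haemoglobin gene Hba-a1 of the erythroid list were each called lower. That setting centres the changes, so these genes are lower relative to the median gene. Without centring the log2 change of Hba-a1 was -0.10. Hba-a1 was also lower with trends removed (log2 change -0.80), where Clk3 (0.71), Trrap (0.78) and Cdk4 (0.58) lost their calls.

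Expression and length of the coding transcripts went along with the size of the change. The groups below hold all genes tested, including those that reached the read minimum in nano-TiO2 alone. With genes in 5 groups of equal size from the lowest coding level to the highest (in TPM, estimated reads per length), the median log2 change by intron reads was 0.13, 0.28, 0.76, 0.86 and 1.09, and the genes called higher numbered 12, 19, 38, 55 and 71. The transcript estimates gave -0.03, 0.14, 0.43, 0.45 and 0.58. From the shortest to the longest coding length, the medians by intron reads were 1.11, 0.94, 0.57, 0.36 and 0.24, with 72, 59, 26, 24 and 14 genes called higher. Over coding GC content the medians were 0.18, 0.38, 0.65, 1.06 and 0.86. Genes with abundant or with short coding transcripts therefore had the larger changes. Those with GC-rich coding transcripts did too, although the median fell from 1.06 to 0.86 between the highest GC groups. Across the 554 genes Spearman's rho of the log2 change was 0.42 with coding TPM, -0.40 with coding length and 0.38 with coding GC, and across the 1840 genes of the transcript estimates it was 0.27, -0.25 and 0.19. TPM is scaled by length, so coding level and coding length are not separate measures. With coding reads not scaled by length, rho was 0.34 across the 554 genes and 0.24 across the 1840. Genes share the same 6 libraries, and coding reads enter both the ratio and the coding level, so these coefficients are a description.

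Length of the retained-intron transcripts by itself went with the change differently in the 2 sources. Over all 1840 genes, the group medians from short to long members were 0.03, 0.21, 0.40, 0.61 and 0.43 in the transcript estimates, with Spearman's rho of 0.19. Over the 554 genes of the intron bins, whose members are longer, they were 0.73, 0.73, 0.67, 0.47 and 0.52 by intron reads, with rho of -0.10. In the groups of the same 554 genes the transcript estimates gave 0.45, 0.76, 0.73, 0.58 and 0.46. Member length relative to coding length went with the change in the same direction in both sources. From the lowest to the highest of this ratio, the medians were -0.04, 0.08, 0.24, 0.50 and 0.89 by estimates, with rho of 0.39. By intron reads they were 0.33, 0.49, 0.65, 0.68 and 1.11, with rho of 0.29. The mean number of member reads had rho of -0.23 with the change by estimates and -0.02 with that by intron reads. The place of the retained intron along the gene had rho of 0.03 over 789 genes and 0.02 over 226 genes.

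**Figure D5:**
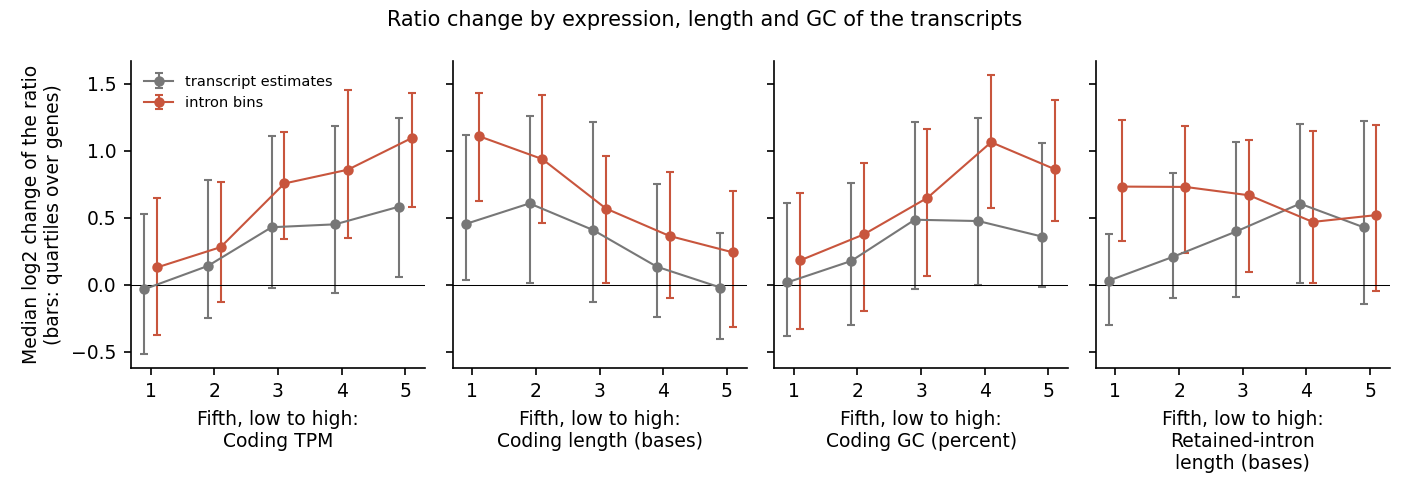
Median log2 change of the ratio (vertical axis, nano-TiO2 against sham, bars from lower to upper quartile over genes) for 5 groups of equal size with genes ordered by coding TPM, coding length, coding GC content and retained-intron length (horizontal axes), from transcript estimates (grey) and intron bins (red). The medians rise with coding TPM from 0.13 to 1.09 and decline with coding length from 1.11 to 0.24 in the intron bins.

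When each library's smooth trend of the ratio over transcript length and GC content, and with it that library's overall level, was removed, 36 genes were called higher and 33 lower by intron reads. All 36 were among the 195, 178 of the 195 still had a change above 0, and 6 of the 9 lower genes were still called. The median over 554 genes was then 0.03. With each library's median ratio alone removed, 90 were higher and 68 lower, and 90 of the 195 and 9 of the 9 were still called. Taking out a library's level centres the changes, so the balance of higher and lower genes under these settings is fixed by the centring and is not a result. Named genes still called with trends removed, with their remaining log2 changes, were Cdip1 (1.00), Anapc5 (1.54), Bub3 (1.23), Rcsd1 (0.96) and Spsb4 (1.41). So were Sat1 (1.40), Myh7 (1.39), Ndufab1 (1.40), Gpi1 (1.33), Rps24 (1.54), Fn1 (0.94), Pfkp (0.99), Cs (0.96) and Hnrnpa2b1 (0.71). Among the decreases they were Mef2c (-1.83), St7l (-1.96), Tmcc1 (-1.92), Ppp4r3a (-1.35), Ankrd17 (-1.18) and Phip (-0.90). Snrnp70 was at 0.69 with trends removed and was not called there (edgeR adjusted p = 0.0538). By list, 3 of 10 metabolic genes were then higher (Cs, Gpi1 and Pfkp) and 1 lower (Pdhb), 1 of 13 sarcomere genes was higher (Myh7) and 1 lower (Myl3), and 1 of 9 respiratory genes was higher (Ndufab1) and 1 lower (Uqcrc1). With medians removed, 4 of 10 metabolic genes were higher and 1 lower, 5 of 13 sarcomere genes higher and 0 lower, 2 of 9 respiratory genes higher and 0 lower, 0 of 15 SR genes higher and 2 lower (Luc7l2 and Nktr), and 1 of 13 spliceosome genes higher (Snrnp70) and 3 lower (Prpf31, Sf3b1 and Thoc1). With trends removed, Rps24 was the 1 ribosomal gene of 7 and Hnrnpa2b1 the 1 hnRNP gene of 5 called higher. Of the 15 SR genes 0 were called by edgeR, where the unadjusted p was under 0.05 in 1 higher gene and in 1 lower gene, and of the 13 spliceosome genes 0 were higher and 1 lower (Prpf31).

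Both sides of the ratio were also tested separately. By estimated reads with TMM scaling over 16704 sums of genes and classes, retained-intron reads were higher in 177 and lower in 51 of the 1840 genes, and coding reads higher in 286 and lower in 289, with medians of 0.41 and -0.14 (edgeR, background 10.7% higher and 9% lower). With library totals in place of TMM these counts were 445 and 3 for retained-intron reads and 534 and 3 for coding reads, so the balance of directions for coding reads depends on the scaling. No sum was called without sham 2, without nano-TiO2 1 or without nano-TiO2 3. In the bin table, under the authors' own scaling, all 554 genes had a median log2 change of 0.96 in their intron parts and 0.27 in their coding exons. The 195 called higher had 1.27 and -0.21, and the 9 called lower had -0.18 and 1.29. These genes were chosen by the ratio, so the medians are a description relative to those of all 554.

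Several other measures moved with the groups in the same direction. Malat1, an RNA that stays in the nucleus, had 368, 359 and 550 RPM, or reads scaled to each library's total in the bin table, in sham 1 to 3 and 1893, 1140 and 1257 RPM in nano-TiO2 1 to 3. Neat1, the scaffold of nuclear paraspeckles, had 1.11, 0.855 and 1.50 RPM against 6.80, 4.39 and 5.48 RPM. All 7 nuclear RNAs listed (also Tug1, Firre, Meg3, Kcnq1ot1 and Xist) were higher in each nano-TiO2 library than in each sham library. Xist, measured here in pools of both sexes, had 25.8, 11.6 and 11.4 RPM against 81.2, 69.0 and 46.8 RPM. Reads in 3164 genes of the annotation class TEC, transcripts still to be verified by experiment, made up 2917, 2463 and 2619 RPM against 3717, 4017 and 3201 RPM. Summed fibroblast markers were at 1668 to 2332 CPM against 2514 to 2862 CPM and endothelial markers at 201 to 248 CPM against 314 to 341 CPM. Erythroid markers went the other way, at 43127 to 122373 CPM against 27058 to 42407 CPM. Macrophage markers overlapped, at 23.8 to 33.9 CPM against 29.0 to 47.3 CPM. The share of coding-exon reads in the third of the exons nearest the 3′ end was 34.7%, 38.3% and 34.6% against 36.0%, 35.8% and 38.9% and overlapped between groups. The part of these measures in the change of the retained-intron ratio was not tested.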

How the data were processed

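The estimated counts per transcript were made by Salmon and deposited unscaled, per the file headers, with TPM values beside them. A second deposited table gives signal in bins along genes, in which the authors had scaled each library's reads by a size factor. Undoing that factor returned whole reads for 100% of values (tolerance 0.001). Tools named without a role per the submitters' processing notes were DESeq2 1.34.0, HISAT2 2.2.1 and Salmon 1.5.2, and the genome build was GRCm39. The tool that counted the bins is not given in the sources read. Transcript classes, lengths and positions came from GENCODE M21 (GRCm38), to which 115685 of 116747 transcripts matched by ID.

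Estimated counts were summed per gene and class and rounded. Ratios were tested with edgeR 4.0.16 (quasi-likelihood, robust; R 4.3.3) as the group effect on the class column beside library terms, over all ratios with means of at least 20 reads, at a Benjamini-Hochberg adjusted p under 0.05. The SE printed with edgeR changes is the size of the log2 change divided by the square root of the test's F statistic. DESeq2 1.42.0, limma 3.58.1 and mgcv 1.9.3 served alternatives. Bins were assigned to exons and introns in genome order, after reads were moved 125 bases and parts trimmed by 25 bases. The intron-read test was planned as an alternative for the ratio, and its own alternatives were added after seeing the data. Calls rest on 3 libraries per group, whose numbers do not pair them. In simulated data with 200 changed rows, changes of 1 and 2 on the log2 scale were recovered in 61.4% and 99.0% of intron-read ratios (660 genes, 8 false calls) and in 0% and 1.77% of estimated ratios (3781).

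Named genes were to be the 10 largest changes in each direction among called ratios, filled up to 6 by the smallest p where fewer were called. These needed shares that do not overlap between groups, a retained-intron mean of at least 50 reads and an ordinary gene symbol. Named too were the 10 genes with most retained-intron reads, and the 4 with most in each list. The members and lists were chosen with earlier results of these data known. Some genes that meet this rule are not reported here.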

Additional observations from a re-analysis of the deposited data

How the results depend on the processing

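For the ratio from transcript estimates, edgeR called 0 genes in each direction with every single library left out. It gave 2 higher and 0 lower with length and GC trends removed, and 8 and 1 of 841 genes tested at a mean of at least 50 reads. On reads, limma gave 0 and 1 and on TPM 1 and 1, DESeq2 gave 149 and 11, and intron reads in place of estimates gave 195 and 9 of 554. With intron reads, Gga2 and Idh3a changed sign to 1.47 each. For intron reads, leaving out single libraries gave 136 to 211 higher and 3 to 12 lower, leaving out sham 2 and nano-TiO2 3 gave 3 lower, trends removed 36 and 33, and medians removed 90 and 68, each of 554 genes. Other settings tested other numbers of genes. A mean of at least 50 reads gave 63 higher of 162, coding exons within 500 bases 5 lower of 466, and reads not moved 59 higher and 1 lower of 1089. Tnnt2, Eno1, Atp5j2, Atp5b, Rpl41 and Ddx39b changed sign with trends removed (-0.18, -0.24, -0.23, -0.17, -0.05 and -0.03), and Myh7 and Prdx6 with reads not moved (-0.05 and -0.01).

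For abundance, leaving out single libraries gave 0 to 131 retained-intron sums higher and 0 to 50 lower, and 0 to 285 coding sums higher and 0 to 365 lower. Without sham 2 and nano-TiO2 3 all 4 counts were 0. Trends removed gave 14, 8, 1 and 45 in that order, library totals 445, 3, 534 and 3, transcripts as features 24, 9, 99 and 86, and DESeq2 83 retained-intron and 434 coding sums lower. Replicate numbers did not pair the libraries: deviations of same-numbered libraries correlated at 0.09, -0.11 and -0.11 for the ratio and -0.08, -0.07 and 0.07 for intron reads. A replicate block gave 194 higher and 9 lower by intron reads, 0 called ratios and 0 called abundance sums. Depth limits the genes at low reads, since 313 members were listed at 0 in at least 1 library.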
